A study of Mus musculus with 6 samples.

Results

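The MAP kinase phosphatases described here are 10 dual-specificity phosphatase genes, Dusp1, Dusp4, Dusp5, Dusp6, Dusp7, Dusp8, Dusp10, Dusp14, Dusp16 and Dusp26, of 35498 genes measured. Dusp8 was chosen by its higher reads in the knockout libraries, so its difference between the groups is given as a description with no test. The others were listed by name, with earlier results of these data known. Infarcted mouse hearts were profiled by poly-A RNA sequencing 7 days after the left anterior descending coronary artery was tied, from C57BL/6J mice of 8 to 10 weeks. The CTL group (n = 3) was Postn CreER+/- with Runx1 WT, and the Runx1_FB_KO group (n = 3) was Postn CreER+/- with Runx1 fl. Both groups carried the tamoxifen-inducible recombinase, driven by the periostin promoter, which is active in activated fibroblasts, and both ate tamoxifen from surgery to collection, so the deletion is aimed at periostin-expressing cells. CTL replicate 1 and Runx1_FB_KO replicates 2 and 3 were female, and the others were male. The RNA came from whole ventricle below the ligature, which also holds cells that lack periostin, and in which fewer cells of a type and less RNA per cell cannot be told apart.

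MAP kinases relay signals from growth factors, stretch and stress. They are switched on when a kinase adds phosphate to a threonine and a tyrosine of their activation loop, and dual-specificity phosphatases switch them off by removing both. Several of these phosphatase genes are themselves induced by the kinases they restrain, which makes them feedback regulators. In the heart, the extracellular signal-regulated kinases (ERK) are linked to growth and survival, and the stress-activated kinases JNK and p38 to stress, inflammation and scarring. Dusp1, Dusp4 and Dusp5 encode nuclear, inducible enzymes. Dusp6 and Dusp7 encode cytoplasmic enzymes that act on ERK. Dusp8, Dusp10 and Dusp16 encode enzymes that prefer JNK and p38. Dusp14 and Dusp26 encode small atypical enzymes that lack the domain by which the others dock on a MAP kinase.

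The feature that the 10 genes share is the active-site loop. Its coding DNA is shown for all of them because it is the same short stretch in an otherwise diverse family. It was read from the GENCODE M21 (GRCm38) transcript to which most reads were assigned. Each line is 27 bases, 5′ to 3′, with the codons of the catalytic cysteine and of the phosphate-binding arginine in capitals.
Dusp1: catTGCcaggccggcatctccCGGtca
Dusp4: cacTGCcaggccggcatctccCGAtca
Dusp5: cacTGCgaagctggggtttccCGGtcg
Dusp6: catTGCttggcaggtatcagcCGCtct
Dusp7: cacTGCctagcaggcatcagcCGTtca
Dusp8: cacTGTctggctggcatctctCGCtct
Dusp10: cacTGCcaggccggcgtgtccCGAtcc
Dusp16: cacTGCttagctgggatctctCGCtcc
Dusp14: cacTGTgcggcaggcgtgagcCGCtcg
Dusp26: cacTGTgcggtgggagtgagcAGAtcc
The stretch of Dusp16 was the most like that of Dusp8, with 22 of 27 bases equal, and that of Dusp26 the least, with 14. The cysteine is codon 246 of 663 in Dusp8 and codon 244 of 660 in Dusp16. In the atypical genes the coding sequence was shorter, with 198 codons in Dusp14 and 211 in Dusp26, against 367 to 663 in the others.

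Promoters, from 250 bases before to 50 bases after the RefSeq start of the gene (GRCm38.p6), were matched for 8 of the 10 genes, all but Dusp4 and Dusp26. For Dusp8 and Dusp1 this window lies inside the GENCODE gene span given further on, so the RefSeq start is not the end of that span. The cyclic AMP response element TGACGTCA, which reads the same on both strands, was found in the promoters of Dusp8 and Dusp1, against 1.79% of 32851 promoters of the same length. Both are printed 5′ to 3′ on the strand of the gene, with that element in capitals.
Dusp8, chr7:142095235-142095534, minus strand: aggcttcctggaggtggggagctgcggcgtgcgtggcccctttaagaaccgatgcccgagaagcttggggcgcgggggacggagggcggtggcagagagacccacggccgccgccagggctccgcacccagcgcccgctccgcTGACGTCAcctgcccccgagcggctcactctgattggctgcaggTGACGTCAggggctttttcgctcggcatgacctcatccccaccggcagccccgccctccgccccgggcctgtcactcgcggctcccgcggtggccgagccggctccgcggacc
Dusp1, chr17:26508423-26508722, minus strand: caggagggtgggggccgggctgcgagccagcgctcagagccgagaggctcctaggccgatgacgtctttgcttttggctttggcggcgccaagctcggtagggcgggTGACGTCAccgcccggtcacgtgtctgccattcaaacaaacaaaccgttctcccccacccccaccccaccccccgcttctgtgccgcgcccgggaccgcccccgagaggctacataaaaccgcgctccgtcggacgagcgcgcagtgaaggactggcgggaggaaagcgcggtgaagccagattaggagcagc
In Dusp8 the elements begin 107 and 63 bases before the start, and in Dusp1 the element begins 143 bases before it. The letters of the RUNX core, TGTGGT or TGCGGT on either strand, were in 0 of the 8 promoters, against 16.8% and 6.45% of all promoters. The AP-1 element TGANTCA (7.81% of all promoters) and the ETS element CCGGAAG (8.86%), each on either strand, were also in 0 of the 8. A match or its lack describes the letters in this window only.

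The libraries held 16584940 to 19967421 estimated reads matched to genes. TMM factors, which correct for the composition of a library, were 1.157 to 1.214 in CTL and 0.732 to 1.078 in the knockout, and mitochondrially encoded genes took 5.36% to 7.11% and 10.37% to 24.49% of the reads. The targeted gene Runx1 was at 96.4, 86.9 and 85.5 CPM (read counts scaled to a common library size, with TMM factors) in CTL replicates 1, 2 and 3 and at 17.5, 10.9 and 67.4 CPM in Runx1_FB_KO replicates 1, 2 and 3. The deleted exon is not named in the labels, so reads from the rest of the gene still count. The log2 fold change of Runx1 was -1.48 (SE 0.63) with all 6 libraries, which did not pass the threshold (adjusted p = 0.154 by edgeR). Without Runx1_FB_KO replicate 3 it was -2.61 (SE 0.22, adjusted p = 0.000142 by edgeR), which passed. Values of single libraries are listed in the order of replicates 1, 2 and 3 throughout. Runx1_FB_KO replicate 3 lay nearest to CTL, and results for Runx1 and the members are given with and without it where they differ. All 24 cardiomyocyte markers listed for the labelled tissue were measured above the filter.

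In the CTL hearts the genes differed widely in level. On the TPM scale, which is per length, Dusp1 was the highest at 50.0 ± 11.0 TPM (SD, n = 3), followed by the ERK phosphatase genes Dusp7 at 29.7 ± 3.38 and Dusp6 at 24.3 ± 3.23 TPM. Dusp16 was at 8.41 ± 1.12 TPM, above Dusp8 at 5.19 ± 0.399 TPM in each CTL library. The ranges of Dusp4 (4.68 ± 1.24 TPM) and Dusp5 (4.63 ± 0.8 TPM) overlapped with each other and with those of Dusp8 and Dusp14 (4.16 ± 0.591 TPM). Dusp8 was above Dusp14 in every CTL library, and the ranges of Dusp7 and Dusp6 overlapped. Dusp10 was at 2.72 ± 0.321 TPM and Dusp26 at 0.324 ± 0.253 TPM. In the knockout Dusp1, Dusp7 and Dusp6 were again the highest by mean, at 34.1 ± 5.96, 20.7 ± 1.3 and 14.8 ± 10.3 TPM. Dusp8 came next at 8.18 ± 2.5 TPM, ahead of Dusp16 at 7.07 ± 1.67 TPM by mean but not in Runx1_FB_KO replicate 1, where they were at 5.67 and 5.9 TPM. TPM carries no TMM factors, so it serves here to rank genes within a group and not to compare the groups. For Dusp1, Dusp5, Dusp7 and Dusp16 the mean TPM was lower in the knockout, while the mean CPM with TMM factors was higher. The other members moved the same way on both scales.

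**Figure D1:**
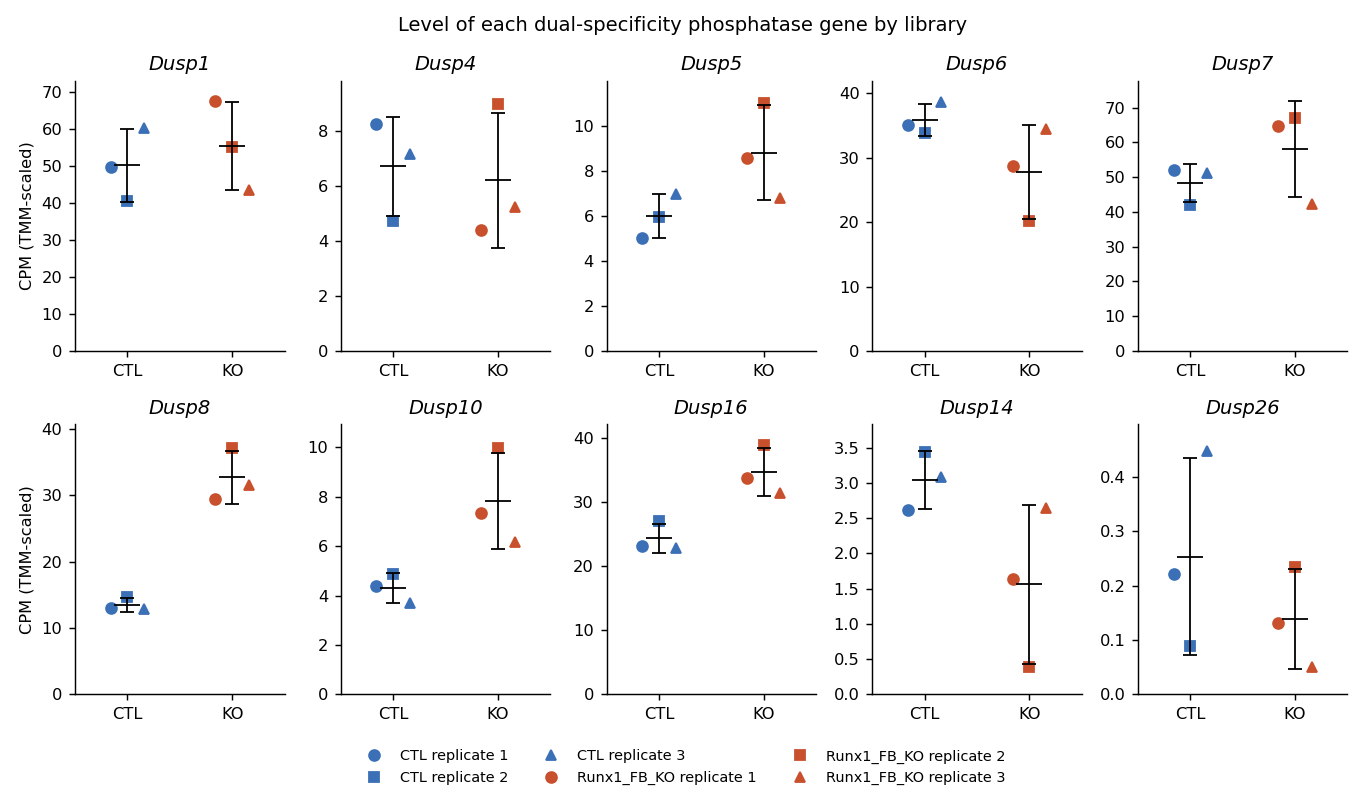
Level of each of the 10 genes in CPM (TMM-scaled, vertical axis from 0) in the 3 CTL (blue) and 3 Runx1_FB_KO (KO, red) libraries. Marker shapes give the replicate, and black bars the group mean and SD. On this scale all knockout values lie above CTL for Dusp8, which was picked for its rise, and for Dusp10 and Dusp16, beside 20.2% of all genes tested. For the other 7 the groups overlap. With library size alone the groups of Dusp10 and Dusp16 overlap, and the knockout values of Dusp6 and Dusp14 all lie below CTL.

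Among the JNK and p38 phosphatase genes, Dusp10 and Dusp16 were higher in every knockout library than in any CTL library, as were 20.2% of the 14237 genes tested. Dusp8, which was picked for its rise, was so by choice and is described first. It (ENSMUSG00000037887, GRCm38 chromosome 7, 142079490 to 142095843, minus strand) read 13.0, 14.7 and 12.8 CPM in the CTL libraries and 29.4, 37.1 and 31.5 CPM in the knockout libraries. The CTL libraries lay close together, and Runx1_FB_KO replicate 3, which lay nearest to CTL for Runx1, was between the other knockout libraries for Dusp8. The log2 fold change was 1.27 (SE 0.16), the value by which the gene was picked, and 1.34 without Runx1_FB_KO replicate 3. Dusp10 (ENSMUSG00000039384, chromosome 1, 184013302 to 184075636, plus strand), whose enzyme is known as a brake on JNK and p38 in immune and muscle cells, read 4.4, 4.87 and 3.68 CPM in the CTL libraries and 7.33, 9.99 and 6.18 CPM in the knockout libraries. Its log2 fold change was 0.86 (SE 0.28, adjusted p = 0.103 by edgeR), which did not pass the threshold. Dusp16 (ENSMUSG00000030203, chromosome 6, 134715468 to 134792625, minus strand), which encodes a JNK phosphatase that shuttles between nucleus and cytoplasm, read 23.2, 27.0 and 22.9 CPM in the CTL libraries and 33.8, 38.9 and 31.5 CPM in the knockout libraries. Its log2 fold change was 0.51 (SE 0.15, adjusted p = 0.0922 by edgeR). Without Runx1_FB_KO replicate 3, Dusp10 (1.04, adjusted p = 0.0155 by edgeR) and Dusp16 (0.62, adjusted p = 0.00882 by edgeR) passed, as they did by DESeq2 with all 6 libraries (adjusted p = 0.0258 and 0.0206).

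The size of these differences depended on the scaling. With library size alone, which moves the median log2 fold change of all genes from -0.06 to -0.52, the log2 fold changes were 0.8 for Dusp8, 0.36 for Dusp10 and 0.03 for Dusp16. On that scale Dusp8 read 15.4, 17.0 and 15.5 CPM in the CTL libraries and 22.5, 27.1 and 34.0 CPM in the knockout libraries, so its groups stayed apart, while those of Dusp10 and Dusp16 overlapped. In TPM the groups of Dusp8 were only just apart, with 5.67 in Runx1_FB_KO replicate 1 against 5.65 in CTL replicate 2. Ratios of 2 genes within a library are free of the scaling, and were computed after the values were seen. There were 0.561, 0.545 and 0.559 Dusp8 reads per Dusp16 read in the CTL libraries, against 0.87, 0.954 and 1.0 in the knockout libraries. The CTL values were nearly equal, and the lowest knockout value lay above them. Dusp8 reads per Dusp10 read were 2.96, 3.02 and 3.47 in the CTL libraries, against 4.01, 3.71 and 5.11 in the knockout libraries. Within the JNK and p38 phosphatases, reads thus shifted toward Dusp8 in each knockout library, a ratio that includes the gene picked for its rise. Dusp10 reads per Dusp16 read, which do not include it, were 0.19, 0.18 and 0.161 against 0.217, 0.257 and 0.196.

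**Figure D2:**
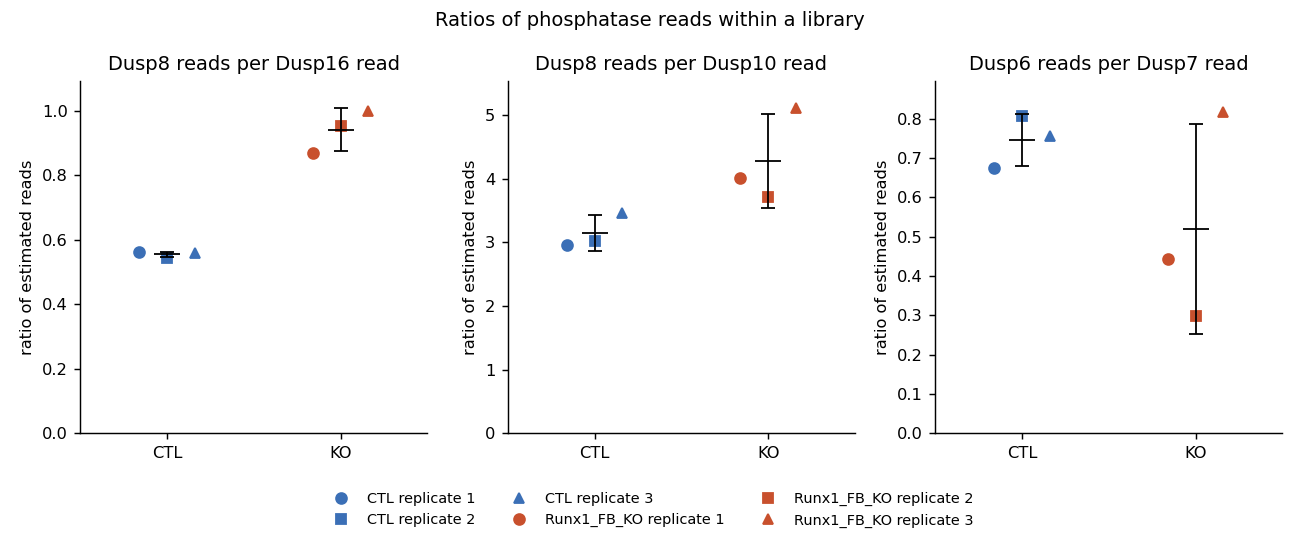
Ratio of estimated reads of 2 phosphatase genes within each library (vertical axis from 0), for 3 CTL (blue) and 3 Runx1_FB_KO (KO, red) libraries, with the mean and SD in black. Dusp8 reads per Dusp16 or Dusp10 read are higher in every knockout library, whereas Dusp6 reads per Dusp7 read are low in Runx1_FB_KO replicates 1 and 2 and just above the highest CTL value in replicate 3.

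Neither of the cytoplasmic ERK phosphatase genes passed the threshold with all 6 libraries, nor did any of the 14237 genes tested. For both of these genes the groups overlapped. Dusp6 (ENSMUSG00000019960, chromosome 10, 99263231 to 99267489, plus strand), a feedback target of ERK signalling, read 35.0, 33.9 and 38.6 CPM in the CTL libraries and 28.7, 20.1 and 34.5 CPM in the knockout libraries. Runx1_FB_KO replicates 1 and 2 lay below CTL, and replicate 3 lay within its range. The log2 fold change was -0.37 (SE 0.21, adjusted p = 0.255 by edgeR), and -0.51 (adjusted p = 0.0484 by edgeR) without Runx1_FB_KO replicate 3. Without Runx1_FB_KO replicate 2 it was -0.18, with an offset for effective length -0.14 (adjusted p = 0.764 by edgeR), and with library size alone -0.79, where the groups did not overlap. Dusp7 (ENSMUSG00000053716, chromosome 9, 106368632 to 106375724, plus strand), the other cytoplasmic ERK enzyme, read 51.9, 42.1 and 51.1 CPM in the CTL libraries and 64.7, 67.1 and 42.2 CPM in the knockout libraries. Runx1_FB_KO replicates 1 and 2 lay above CTL, and replicate 3 lay inside its range. The log2 fold change was 0.26 (SE 0.21, adjusted p = 0.393 by edgeR), 0.49 (adjusted p = 0.0221 by edgeR) without that library, and -0.25 with library size alone. Dusp6 reads per Dusp7 read were 0.675, 0.807 and 0.755 in the CTL libraries, against 0.444, 0.299 and 0.817 in the knockout libraries, so these groups overlapped too.

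None of the 3 nuclear inducible genes passed the threshold with all 6 libraries, nor did any of the 14237 genes tested. For each of the 3 the groups overlapped. Dusp1 (ENSMUSG00000024190, chromosome 17, 26505590 to 26562128, minus strand), an immediate early gene, read 49.6, 40.6 and 60.1 CPM in the CTL libraries and 67.4, 55.0 and 43.5 CPM in the knockout libraries. The log2 fold change was 0.14 (SE 0.22, adjusted p = 0.658 by edgeR), and -0.36 with library size alone. Its annotated span overlaps that of Ergic1 on the opposite strand, which had 725 to 2003 reads. How far the 2 spans overlap was not measured, and whether strand was used in the counting is not given in the sources used here. Dusp4 (ENSMUSG00000031530, chromosome 8, 34807297 to 34819894, plus strand) read 8.23, 4.73 and 7.16 CPM in the CTL libraries and 4.39, 8.98 and 5.21 CPM in the knockout libraries. The spread within each group exceeded the difference between them, with a log2 fold change of -0.12 (SE 0.36, adjusted p = 0.829 by edgeR) that took the other sign, at 0.06, 0.08 and 0.03, without CTL replicate 1, Runx1_FB_KO replicate 1 or Runx1_FB_KO replicate 3. Dusp5 (ENSMUSG00000034765, chromosome 19, 53529109 to 53542431, plus strand), which encodes a nuclear phosphatase specific for ERK, read 5.02, 5.94 and 6.96 CPM in the CTL libraries and 8.58, 11.0 and 6.79 CPM in the knockout libraries. Runx1_FB_KO replicates 1 and 2 lay above CTL, and replicate 3 lay below the highest CTL library. Its log2 fold change was 0.55 (SE 0.27, adjusted p = 0.189 by edgeR), 0.75 (adjusted p = 0.0416 by edgeR) without Runx1_FB_KO replicate 3, and 0.05 with library size alone.

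The atypical genes were scarce. Dusp14 (ENSMUSG00000018648, chromosome 11, 84048041 to 84069261, minus strand) had 59, 77 and 62 reads in the CTL libraries against 25, 5 and 52 in the knockout libraries, or 2.62, 3.44 and 3.08 CPM against 1.64, 0.39 and 2.65 CPM. Runx1_FB_KO replicate 2 was by far the lowest, and Runx1_FB_KO replicate 3 lay just above CTL replicate 1. The log2 fold change was -0.94 (SE 0.61, adjusted p = 0.3 by edgeR). Leaving out Runx1_FB_KO replicate 3 gave -1.52 (adjusted p = 0.0776 by edgeR), and leaving out Runx1_FB_KO replicate 2 gave -0.50. With library size alone the log2 fold change was -1.29 (adjusted p = 0.2 by edgeR), and the groups did not overlap. Dusp26 (ENSMUSG00000039661, chromosome 8, 31089471 to 31097047, plus strand) had 5, 2 and 9 reads in the CTL libraries against 2, 3 and 1 in the knockout libraries. It did not pass the filter on low counts and so was not among the 14237 genes tested. In the edgeR fit without that filter it did not pass the threshold.

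The counts of members are set here beside those of all genes. With all 6 libraries edgeR called 0 of the 8 tested members other than Dusp8, beside 0.0% of 14237 genes. At an unadjusted p under 0.05 there were 2 of these 8, Dusp10 and Dusp16, beside 32.4% of all genes. All knockout values lay above all CTL values for 2 of the 8, beside 20.2% of all genes, and below them for 0 of the 8, beside 18.8%. DESeq2 called 2 of the 8 higher, beside 15.3% of all genes, and 0 lower, beside 5.78%. Without Runx1_FB_KO replicate 3, edgeR called 4 of the 8 higher (Dusp5, Dusp7, Dusp10 and Dusp16), beside 25.1% of 14609 genes, and 1 lower (Dusp6), beside 22.5%. The median log2 fold change of the 8 was 0.2, beside -0.06 for all genes tested. With so few members, shares of this size are not read as particular to the family.

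**Figure D3:**
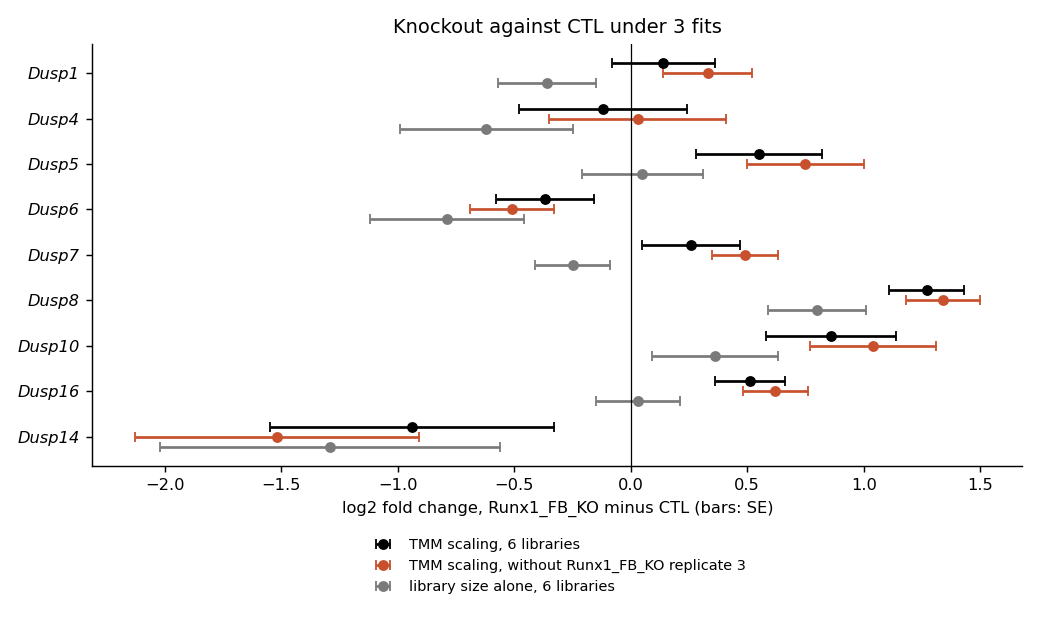
Log2 fold change of Runx1_FB_KO minus CTL (horizontal axis) for the 9 tested genes, with SE bars, from 3 edgeR fits. Black is TMM scaling with 6 libraries, red leaves out Runx1_FB_KO replicate 3, and grey uses library size alone. Dusp8 is the gene farthest to the right in each fit, at 1.27, 1.34 and 0.8, and was picked for that rise. With library size alone the values of Dusp1 and Dusp7 change sign and those of Dusp5 and Dusp16 lie near 0.

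In Dusp4, Dusp5, Dusp7, Dusp8 and Dusp10 a single transcript carried nearly all reads in each library. Dusp8-201, of 4804 bases, was assigned 292.9, 329.1 and 257.3 reads in the CTL libraries against 449.1, 464.6 and 618.2 in the knockout libraries, at least 97.7% of the gene's reads in each library. Dusp4 and Dusp5 have a single transcript in the tables, Dusp7-201 held at least 99.4% of the reads of Dusp7, and Dusp10-201 at least 98.8% of those of Dusp10. The main transcript held 80.8% to 98.2% of the reads in Dusp1, 88.2% to 99.0% in Dusp6 and 82.1% to 99.8% in Dusp16. The few reads of Dusp26 were assigned to different transcripts in different libraries. Dusp1-203, a retained-intron transcript, was assigned 1.6% to 16.2% of the reads of Dusp1 in CTL and 8.2% to 14.3% in the knockout, so the groups overlapped. For Dusp6, the short noncoding Dusp6-203 was assigned 28.6 and 78.6 reads in Runx1_FB_KO replicates 1 and 3, and 20.2 reads in CTL replicate 3, with 0.0 reads in the other libraries. The full-length Dusp6-201 alone was assigned 768.4, 703.9 and 747.8 reads in the CTL libraries against 405.8, 254.0 and 595.6 in the knockout libraries, which do not overlap, but these are estimated reads not scaled between libraries. In Dusp14 the main transcript Dusp14-202 held 31.5% of the reads in CTL replicate 3, where Dusp14-205 took 62.3%, and at least 90.2% in the other libraries. Reads in sequence common to several transcripts are apportioned by an estimate, so shares of scarce transcripts are uncertain.

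Markers of other cells differed between the same libraries. The summed level of the 24 cardiomyocyte markers ran from 14650 to 18910 CPM in CTL libraries and from 37210 to 136100 CPM in knockout libraries, and that of the 13 mitochondrially encoded genes was 44240 to 61460 and 96290 to 320100 CPM. All members of both lists were higher in every knockout library, beside 20.2% of all genes. The summed level of the 20 myofibroblast and activated fibroblast markers ran from 49650 to 53660 CPM and from 10740 to 44190 CPM. That of the 14 macrophage markers was 3508 to 5499 and 1420 to 3574 CPM. In each of these 2 lists, 7 markers were below CTL in every knockout library, beside 18.8% of all genes. The summed level of the T and NK cell markers ran from 17.1 to 26.1 CPM in CTL libraries and from 6.17 to 9.29 CPM in knockout libraries, and 8 of the 9 tested were below CTL in every knockout library, beside 18.8% of all genes. With all 6 libraries edgeR called 0 markers of these 5 lists. Without Runx1_FB_KO replicate 3 it called all 24 cardiomyocyte and all 13 mitochondrially encoded genes higher, beside 25.1% of 14609 genes. It then called 20 myofibroblast, 13 macrophage and 3 T and NK cell markers lower, beside 22.5%. No marker of these 5 lists was at 0 in all libraries. The endothelial list, with a summed level of 1483 to 1638 CPM against 1659 to 2161 CPM, had a median log2 fold change of -0.03 over 12 markers. The part of these shifts in the differences of the members was not tested.

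The members differed in how they ranked the knockout libraries. The cardiomyocyte score, a mean log2 difference from CTL, was 2.82, 3.02 and 1.24 in the knockout libraries, and the myofibroblast score was -2.34, -2.72 and -0.11. Dusp8 differed from its CTL mean by 1.12, 1.45 and 1.22 on the log2 scale in the same libraries, so its difference was as large in replicate 3 as in replicate 1. Dusp10 differed by 0.76, 1.2 and 0.52, Dusp16 by 0.47, 0.68 and 0.37 and Dusp5 by 0.53, 0.88 and 0.19, each smallest in replicate 3. Dusp6 differed by -0.32, -0.83 and -0.05 and Dusp14 by -0.85, -2.66 and -0.18, also nearest to 0 in replicate 3. These orders are those with TMM scaling. With library size alone, Dusp8 (22.5, 27.1 and 34.0 CPM) and Dusp16 (25.8, 28.4 and 33.9 CPM) were highest in knockout replicate 3. On that scale Dusp10 (5.61, 7.31 and 6.65 CPM) and Dusp5 (6.56, 8.05 and 7.31 CPM) were lowest in knockout replicate 1. Dusp6 and Dusp14 still lay nearest to CTL in replicate 3.

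**Figure D4:**
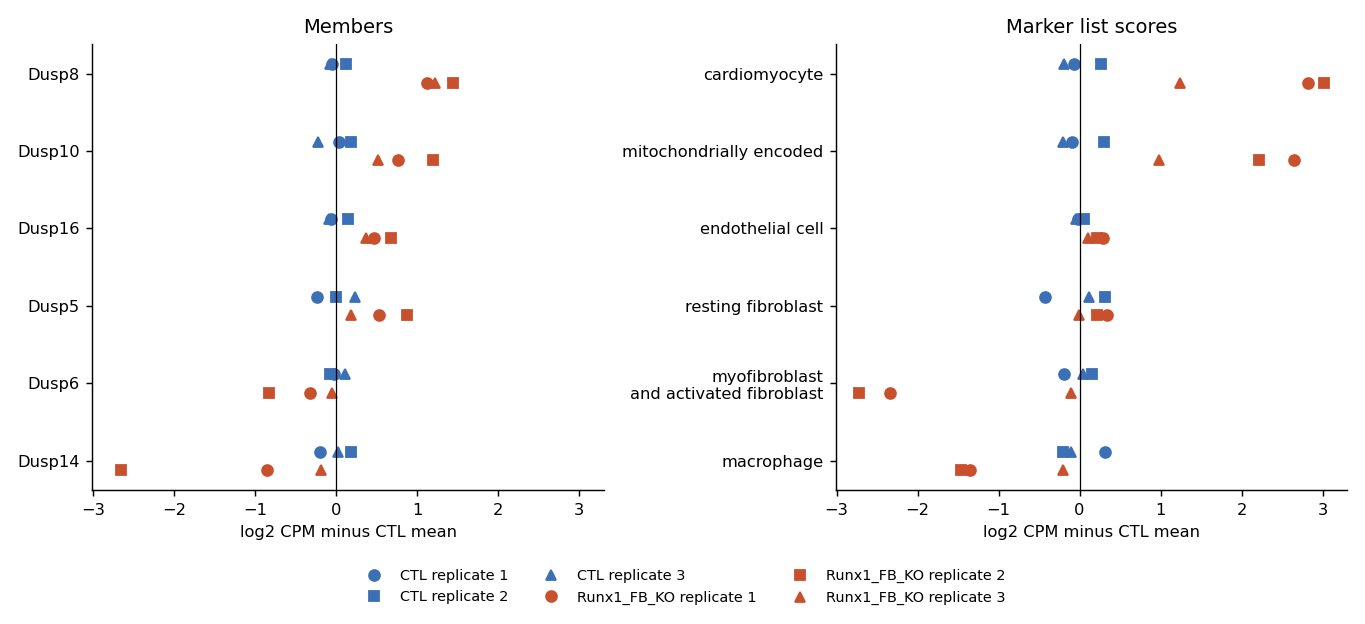
Log2 CPM minus the CTL mean for 6 members (left) and for the scores of 6 marker lists (right), 1 point per library on a shared horizontal axis, CTL in blue and Runx1_FB_KO in red with a shape for each replicate. Runx1_FB_KO replicate 3 (red triangles) lies near CTL for Dusp6, Dusp14 and the myofibroblast and macrophage lists, and with the other knockout libraries for Dusp8.

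The other genes of the pathway were taken from 9 lists by function, holding 133 genes, of which 122 were tested. edgeR called 0 of the 122 with all 6 libraries, and 36 had an unadjusted p under 0.05, a smaller share than the 32.4% of all genes. DESeq2 called 16 higher and 3 lower, also smaller shares than the 15.3% and 5.78% of all genes. All knockout values lay above CTL for 32 and below CTL for 17, beside 20.2% and 18.8% of all genes. The median log2 fold change was 0.1, or -0.35 with library size alone, beside -0.06 and -0.52 for all genes. Without Runx1_FB_KO replicate 3 edgeR called 41 higher and 24 lower, beside 25.1% and 22.5% of all genes. Apart from Dusp2, the genes named below had the smallest p of their list. None of these genes passed with all 6 libraries, the fit whose values are given. Without Runx1_FB_KO replicate 3 all of them passed, with adjusted p from 8.18e-05 (Ppm1l) to 0.0107 (Mef2c) by edgeR. They were chosen by p in the same data, so this is no separate test.

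Among other phosphatases, 4 of the 11 tested dual-specificity genes were higher in every knockout library and 1 was lower, beside 20.2% and 18.8% of all genes. Dusp18, an atypical member, had a mean of 13.1 ± 3.35 CPM across CTL libraries and 63.0 ± 32.0 CPM across knockout libraries (SD, n = 3; log2 fold change 2.26, adjusted p = 0.0682 by edgeR). Dusp27, a catalytically inactive relative found in striated muscle, was at 26.1 ± 5.49 and 65.3 ± 25.2 CPM (1.32, adjusted p = 0.0687 by edgeR). Unlike Dusp8, both were lowest among the knockout libraries in replicate 3, at 28.8 and 40.5 CPM. The 1 lower gene, named after its values were seen, was Dusp2, a nuclear inducible phosphatase, at 4.8, 2.59 and 2.54 CPM against 0.72, 1.25 and 2.35 CPM. Of 10 tested genes for other phosphatases that act on MAP kinases or their subunits, 4 were higher in every knockout library and 1 lower, to be read against the same shares. Ppm1l and Ppm1b, metal-dependent serine/threonine phosphatases, averaged 11.1 ± 2.81 and 64.9 ± 7.61 CPM across CTL libraries, against 64.1 ± 35.5 and 137 ± 45.8 CPM across knockout libraries (adjusted p = 0.0682 and 0.0736 by edgeR).

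Among the kinases that these phosphatases oppose, the lists were mixed. Of 13 tested MAP kinase genes, 2 were higher and 5 lower in every knockout library, with a list median of 0.08. For this list and those that follow, the shares over all genes are 20.2% higher and 18.8% lower, and lists this short are not read as departing from them. Mapk10, the JNK gene best known from brain and heart, averaged 2.54 ± 1.02 CPM across CTL libraries and 14.6 ± 9.18 CPM across knockout libraries (log2 fold change 2.51, adjusted p = 0.0682 by edgeR), and Mapk7, which encodes the large MAP kinase also called ERK5, was at 31.1 ± 2.7 and 15.4 ± 4.09 CPM (-1.01, adjusted p = 0.0682 by edgeR). Of the 7 MAP kinase kinase genes, 3 were higher in every knockout library and 0 lower, with a median of 0.42. Map2k7, which activates JNK, had a log2 fold change of 0.59 (adjusted p = 0.112 by edgeR), and Map2k3, which activates p38, one of 0.42 (adjusted p = 0.146 by edgeR). Of 19 MAP kinase kinase kinase genes, 6 were higher and 2 lower, with a median of 0.01. Map3k20, a sensor of ribosome stress upstream of JNK and p38, was at 79.9 ± 11.6 and 189 ± 59.6 CPM (1.24, adjusted p = 0.0682 by edgeR), and Map3k4 at 25.1 ± 3.42 and 42.9 ± 8.94 CPM (0.77, adjusted p = 0.0771 by edgeR).

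Scaffolds, downstream kinases and response genes were mixed too. Of 12 tested scaffold genes, 2 were higher and 1 lower in every knockout library, beside 20.2% and 18.8% of all genes. Mapk1ip1 and Mapk8ip3, a JNK scaffold, had log2 fold changes of 0.82 and 0.5 (adjusted p = 0.0955 and 0.102 by edgeR). Of 10 tested kinases downstream of MAP kinases, 2 were higher and 3 lower. Rps6ka4, a nuclear kinase that acts on chromatin, was at 68.4 ± 11.2 and 38.5 ± 5.22 CPM (-0.83, adjusted p = 0.0682 by edgeR), and Mapkapk2, the main p38 substrate kinase, at 178 ± 19.2 and 318 ± 107 CPM (0.84, adjusted p = 0.112 by edgeR). Of 23 ERK feedback and response genes, 5 were higher, close to the share over all genes, and 2 lower, with a median of -0.25. Phlda1 was at 17.9 ± 2.93 and 45.2 ± 17.1 CPM (1.33, adjusted p = 0.0682 by edgeR) and Spry4, an inhibitor of ERK signalling, at 9.97 ± 0.819 and 17.1 ± 1.88 CPM (0.78, adjusted p = 0.0682 by edgeR). Of 17 JNK and p38 stress response genes, 4 were higher and 2 lower, with a median of -0.06. The AP-1 gene Jund had a log2 fold change of -0.47 (adjusted p = 0.128 by edgeR), and Mef2c, a muscle transcription factor activated by p38, one of 0.46 (adjusted p = 0.138 by edgeR).

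**Figure D5:**
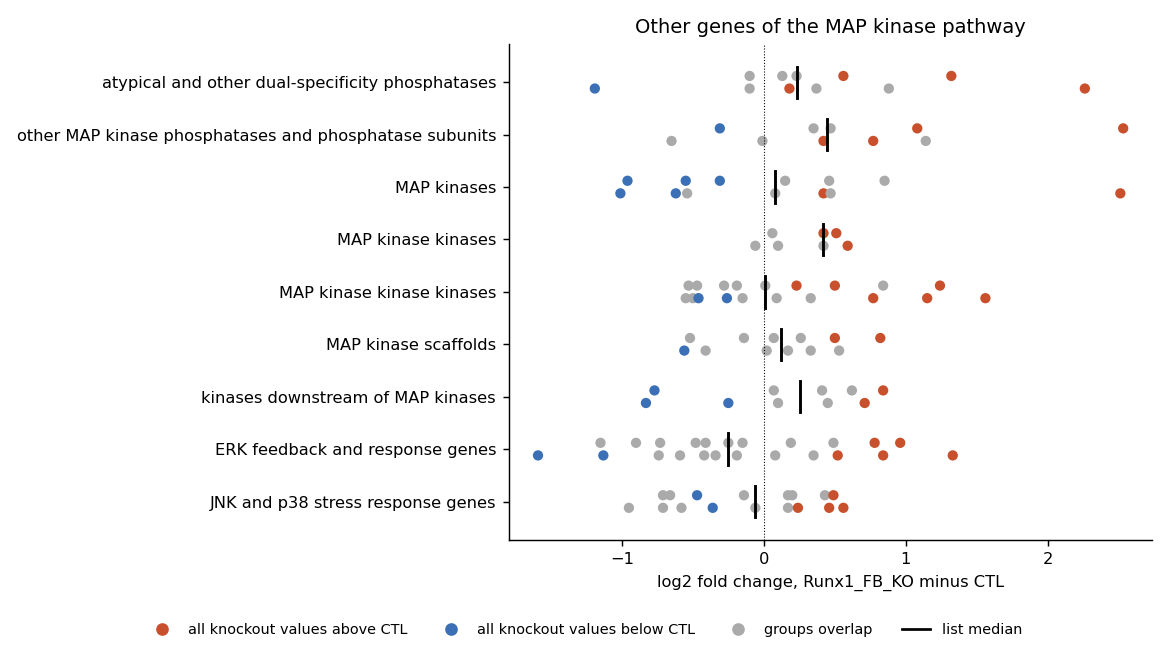
Log2 fold change of Runx1_FB_KO minus CTL (horizontal axis) for the 122 tested genes of 9 MAP kinase pathway lists, 1 point per gene, with the list median as a black bar. Red points have all knockout values above CTL, blue points all below, and grey points overlap. List medians run from -0.25 for the ERK feedback and response genes to 0.44 for the other MAP kinase phosphatases and phosphatase subunits.

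The 5 genes whose pattern over the 6 libraries lay nearest to that of Dusp8 were Cd28, Alpl, Spsb4, Epn3 and Hacd1, out of 12844 compared. The measure was the root mean square difference of log2 CPM after centring each gene on its mean, and it ran from 0.127 to 0.178. Cd28, a costimulatory receptor of T cells, read 2.05, 2.68 and 2.04 CPM in the CTL libraries and 4.12, 6.09 and 4.59 CPM in the knockout libraries. It is not on the list of T and NK cell markers, whose 9 tested genes all had log2 fold changes below 0 (median -1.52). Alpl, which encodes alkaline phosphatase, read 14.3, 18.2 and 12.8 CPM in the CTL libraries and 34.8, 36.4 and 30.8 CPM in the knockout libraries. Spsb4, Epn3 and Hacd1, an enzyme of very long chain fatty acid synthesis in muscle, had log2 fold changes of 1.25, 1.41 and 1.05. These genes were found by likeness to a gene picked for its difference, so their differences carry no test.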

How the data were processed

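Poly-A RNA from 6 mouse hearts was sequenced. For each of 116546 transcripts the authors deposited an estimated count, a TPM value and an effective length, in 1 table for each sample. Salmon 1.5.2, DESeq2 1.44.0 and the build mm10 (GRCm38) are named by the submitters' processing notes. Neither the annotation release nor any use of strand is stated in the sources used here. The TPM that the authors deposited served to compare levels between genes.

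Transcripts were matched to GENCODE M21 by identifier. Of these, 115977 matched and 569, with 0.078% to 0.102% of the reads, did not and were dropped. Gene totals for 35498 genes are sums of the estimated counts, rounded. filterByExpr kept 14237 genes and libraries were scaled by TMM. The quasi-likelihood test of edgeR 4.0.16 compared the genotypes with no covariate, and p-values were adjusted across the 14237 genes by Benjamini-Hochberg, with a threshold of 0.05. SE is the size of the log2 fold change over the square root of F. Alternatives were RLE, upper quartile and library size scaling, no filter, a filter of at least 1 CPM in 3 samples, a replicate block, sex as a covariate, an effective length offset, each library left out, DESeq2 1.42.0 and limma-voom (limma 3.58.1).

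A score is the mean log2 CPM (prior count of 2) of a list minus its CTL mean. The members and lists were chosen with earlier results of these data known. Named genes were the members, Runx1, the pathway genes with the smallest p in each list and the 5 protein-coding genes nearest to Dusp8. Dusp2 was added after its values were seen. The labels number the replicates without saying how each was taken, so p-values measure the spread between these samples.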

Additional observations from a re-analysis of the deposited data

How the results depend on the processing

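With all 6 libraries edgeR called 0 of 14237 genes, 0 of the 8 members other than Dusp8 and 0 of 122 pathway genes, and 4619 genes had an unadjusted p under 0.05. DESeq2 called 2995, 2 and 19 of these, and without the filter on low counts edgeR called 889 genes and 8 pathway genes. Leaving out each library in turn gave 0 to 6947 genes, 0 to 5 members and 0 to 65 pathway genes, and all calls came without Runx1_FB_KO replicate 3. limma-voom called 0. With library size alone the log2 fold changes of Dusp1 and Dusp7 turned to -0.36 and -0.25 and that of Dusp8 was 0.8. With each library left out, Dusp1 ran from -0.02, without Runx1_FB_KO replicate 1, to 0.33, and Dusp4 from -0.48 to 0.08, and was above 0 without CTL replicate 1, Runx1_FB_KO replicate 1 or Runx1_FB_KO replicate 3 (0.06, 0.08 and 0.03). The cause of these changes was not tested. Dusp8 stayed between 0.8 and 1.36, Dusp10 between 0.36 and 1.04 and Dusp16 between 0.03 and 0.62 in the 16 alternatives. With the replicate number as a block edgeR called 0 genes. The deviations of same-numbered libraries correlated at -0.05, 0.11 and 0.08, so the numbers do not show a pairing. Few reads limit Dusp14 and Dusp26.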
